A study of Mus musculus with 40 samples.

Results

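RNA of 10 genes used as markers of the fates a thymus-seeding progenitor gives up was measured in mouse thymocytes sorted at 2 stages. These are the transcription factor genes Spi1, Spib, Irf8 and Cebpa, the granule enzyme gene Mpo, the cytokine receptor gene Csf1r, the integrin genes Itgam and Itgax, and the B-cell receptor signalling genes Cd79a and Cd79b. The genes were chosen by symbol, with earlier results of these data known. All 10 members were found among the 23284 genes of the pI-pC and antibody table and the 23107 genes of each tamoxifen table. Spi1 is listed there under its older symbol Sfpi1 and was matched through RefSeq synonyms. On GRCm38 (GENCODE M21) Spi1 spans chr2:91082390-91115756 and Irf8 chr8:120736358-120756694. Spib (chr7:44525993-44532071, minus strand), Cebpa (chr7:35119293-35121928), Itgam (chr7:128062640-128118491), Itgax (chr7:128129547-128150657) and Cd79a (chr7:24897381-24902197) share a chromosome. Mpo spans chr11:87793581-87804413 and Cd79b chr11:106311341-106314762 on the minus strand, and genes with no strand named lie on the plus strand.

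Early T-cell precursors (ETP) enter the thymus with residual myeloid, dendritic and B-cell potential, and Notch1 signalling from the thymic stroma directs them to the T lineage. Spi1 encodes PU.1, an ETS-family factor that drives myeloid and B-cell programmes, and thymocytes silence it as they commit before the double-negative 3 (DN3) stage. The other members are in routine use as markers of granulocytes and macrophages (Cebpa, Mpo, Csf1r, Itgam), dendritic cells (Irf8, Itgax, and Spib for the plasmacytoid kind) and B cells (Cd79a, Cd79b).

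RNA was sequenced in 40 libraries that form 12 groups, all from C57BL/6 mice. The groups named DeltaMxCre came from MxCre Zmiz1f/f mice and the MxCre groups from MxCre mice. Both received 40 mcg pI-pC every 2 days, 5 times in all, and were sorted 8 weeks later, with 3 mice per group. The DeltaTamCre groups came from Rosa26CreERT2 Zmiz1f/f mice and the TamCre groups from Rosa26CreERT2 mice. Both received 0.2 mg/g tamoxifen and were sorted 43 to 44 hours later, with 4 mice per group. In the AntiNRR groups, mice had been given 10 mg/kg of an antibody to Notch1's negative regulatory region, which blocks the receptor, and in the IgG groups the isotype control, each 24 hours before sorting. Each antibody group held 3 libraries, and the labels give neither a mouse number nor a genotype for them. pI-pC is an interferon inducer that switches on MxCre in many cell types, and Rosa26CreERT2 is likewise active beyond thymocytes, so deletion need not be limited to ETP or DN3 cells. Zmiz1 encodes a co-activator that partners with Notch1, and the comparisons ask how its loss, or the loss of Notch1 signalling, alters thymocytes.

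The 3 tables came from different library kits, per the labels, and no test or level was set across them. Tamoxifen DN3 libraries were deepest, with 48127197 to 91659598 total counts, ahead of tamoxifen ETP (17418638 to 30975324) and of the pI-pC and antibody libraries (9456818 to 23962395). Zmiz1 stood at 113 to 129 CPM (counts scaled to library size) in DeltaMxCre DN3 against 286 to 349 in MxCre DN3, and at 58.7 to 114 in DeltaMxCre ETP against 157 to 319 in MxCre ETP. It stood at 184 to 243 CPM in DeltaTamCre DN3 against 301 to 354 in TamCre DN3, and at 120 to 307 in DeltaTamCre ETP against 417 to 461 in TamCre ETP. In the antibody groups Zmiz1 stood at 302 to 315 CPM in AntiNRR DN3 against 250 to 298 in IgG DN3, and at 97.7 to 249 in AntiNRR ETP against 205 to 224 in IgG ETP. The labels describe both sorted stages as CD44-positive and CD25-negative, yet Cd44 averaged 2.48 ± 0.233 CPM in IgG DN3 against 88.5 ± 44.5 in IgG ETP (SD, n = 3 each). Il2ra, which encodes CD25, averaged 3413 ± 305 CPM in IgG DN3 and 2158 ± 369 in IgG ETP, so its RNA was plentiful at both stages.

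The promoters of 3 genes that stood high in ETP are shown beside that of Spib, which stood high in DN3, because the stage differences of these members lay on opposite sides of 0. The stretches are RefSeq sequence on GRCm38.p6, end before any annotated exon of the gene, and read 5′ to 3′ on the strand of the gene. Capitals mark GAGGAA or its reverse complement TTCCTC, the core that PU.1 and Spi-B share. The stretches are chr11:87793534-87793580 (plus strand) for Mpo, chr7:128062390-128062639 (plus strand) for Itgam, chr7:128129300-128129546 (plus strand) for Itgax and chr7:44532072-44532321 (minus strand) for Spib.
Mpo: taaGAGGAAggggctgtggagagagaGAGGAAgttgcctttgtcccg
Itgam: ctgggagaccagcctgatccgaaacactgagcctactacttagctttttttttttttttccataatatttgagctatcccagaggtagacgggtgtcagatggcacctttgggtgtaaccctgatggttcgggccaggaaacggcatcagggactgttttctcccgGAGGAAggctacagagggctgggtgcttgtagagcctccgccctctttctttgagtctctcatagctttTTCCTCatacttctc
Itgax: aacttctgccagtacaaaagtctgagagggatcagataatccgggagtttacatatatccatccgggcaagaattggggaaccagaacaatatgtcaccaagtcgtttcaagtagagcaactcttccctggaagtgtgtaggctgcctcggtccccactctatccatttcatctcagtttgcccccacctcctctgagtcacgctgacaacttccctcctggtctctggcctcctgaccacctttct
Spib: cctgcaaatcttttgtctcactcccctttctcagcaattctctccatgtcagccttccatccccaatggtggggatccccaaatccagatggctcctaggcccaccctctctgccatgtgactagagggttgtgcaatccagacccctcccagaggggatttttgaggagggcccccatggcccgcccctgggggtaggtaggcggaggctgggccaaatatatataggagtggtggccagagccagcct
RefSeq windows of 300 bases, from 250 before to 50 after the start, were at hand for 7 of the 10 members. A match to GAGGAA on either strand lay in the windows of 3 of these 7 genes, against 28.3% of 32851 windows of all genes. Itgam held 3 matches, at -84, -15 and 33 relative to the RefSeq start, Mpo held 2, at -247 and -224, and Cd79a held 1, at -140. The RBPJ core TGGGAA lay only in Irf8 among these 7 genes (25.6% of all windows), and the Runx element TGTGGT only in Itgax (16.8%). A match is a description of the letters and no evidence of binding.

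More members were called between the stages than between any treatment and its control, and the filter on low counts had a part in both counts. In the treatment tests the filter left out members that were low in both groups, such as Mpo in DN3. The 2 kinds of count are therefore a description. Levels below are CPM, estimated counts scaled by the trimmed mean of M values (TMM) within a table, and fold changes compare DN3 with ETP of the same treatment within the pI-pC and antibody table. Of the 10 members, 8 passed the filter on low counts in each stage comparison, and Cebpa and Cd79a did not. Mpo, Spi1 and Itgax passed largely through their ETP counts, and could hardly have passed it without a difference between the stages. The same held for Csf1r in AntiNRR, where its DN3 libraries held 0 to 4 counts. In IgG, where Csf1r was called, its DN3 libraries held 11 to 28 counts. The lowest Itgam library held 6 counts in DeltaMxCre DN3 and 7 in AntiNRR DN3. By edgeR's quasi-likelihood test with Benjamini-Hochberg adjustment over all genes, 3 members fell and 0 rose in DeltaMxCre DN3 against DeltaMxCre ETP, where 11.3% of all genes were called (5.14% higher and 6.21% lower). In MxCre DN3 against MxCre ETP 1 member fell, with 2.99% of all genes called (0.895% higher and 2.1% lower). In AntiNRR DN3 against AntiNRR ETP 3 fell and 1 rose, with 11.6% called (5.75% higher and 5.87% lower). In IgG DN3 against IgG ETP 3 fell and 1 rose, with 14.7% called (7.12% higher and 7.6% lower). DN3 and ETP libraries did not overlap for 4 tested members in DeltaMxCre (32.4% of all genes), 5 in MxCre (24.3%), 7 in AntiNRR (31%) and 7 in IgG (33.3%). The median log2 fold change of the tested members was -1.34 for DeltaMxCre, -2.46 for MxCre, -3.48 for AntiNRR and -2.63 for IgG, and that of all genes lay between -0.02 and -0.01. In these bulk libraries, fewer cells of a type and less RNA per cell cannot be told apart.

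**Figure D1:**
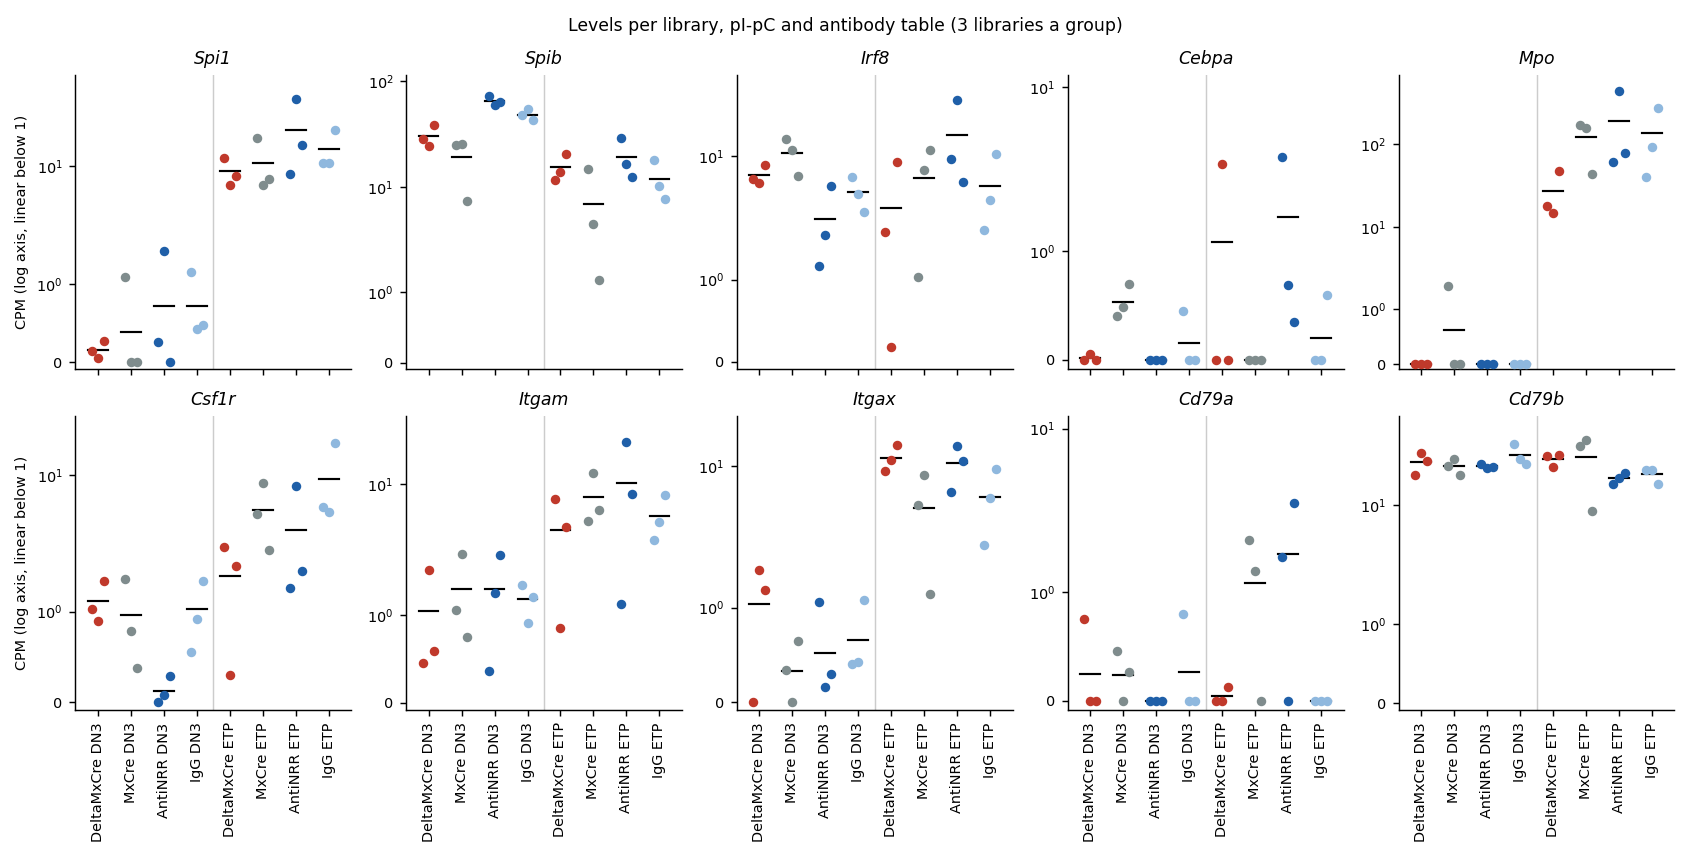
Levels of the 10 members in CPM (log axis, linear below 1) in every library of the pI-pC and antibody table, DN3 groups left and ETP groups right; points are libraries and bars are means of 3. Mpo lies at 14.6 to 440 CPM in all 12 ETP libraries and at 0 in 11 of the 12 DN3 libraries, while Spib is higher in most DN3 libraries and Cd79b lies between 8.98 and 35.6 CPM in all 24.

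Mpo encodes myeloperoxidase, the oxidant-producing enzyme of neutrophil granules. Its level was 0 CPM in all 3 DeltaMxCre DN3 libraries, against 17.9, 14.6 and 48.0 CPM in DeltaMxCre ETP. In MxCre DN3 it was 1.89, 0 and 0 CPM, against 170, 157 and 43.4 CPM in MxCre ETP. It was 0 in all 3 AntiNRR DN3 libraries, against 61.3, 440 and 78.9 CPM in AntiNRR ETP, and 0 in all 3 IgG DN3 libraries, against 40.5, 93.7 and 275 CPM in IgG ETP. No DN3 library overlapped an ETP library, and the single DN3 library with Mpo reads, MxCre DN3 replicate 1, held 33 counts. Mpo was at least 456-fold lower in DeltaMxCre DN3 (floor of 3 counts over the group; edgeR adjusted p = 0.000148), at least 2906-fold lower in AntiNRR DN3 and at least 2416-fold lower in IgG DN3. The last 2 differences did not pass edgeR (adjusted p = 0.146 and 0.111) and passed DESeq2 (adjusted p = 8.33e-12 and 8.59e-14). In MxCre DN3 Mpo fell by 7.64 on the log2 scale (SE 1.13, edgeR adjusted p = 0.00674). Retaining genes with as few as 1 count raised that adjusted p to 0.0905. Gm11505, an annotated antisense gene, shares 512 exon bases with Mpo, and the counting is not stated to use strand.

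Other granule genes were low or at 0 at both stages. Of the 11 measured neutrophil and granule markers, 7 were at 0 in all MxCre ETP libraries and 6 in all IgG ETP libraries, including Elane (neutrophil elastase), S100a8 and S100a9 in both groups. In DeltaMxCre ETP 2 of them were at 0 throughout. Some had the pattern of Mpo. Prtn3 (proteinase 3) and Ctsg (cathepsin G) were at 0 in all IgG DN3 and AntiNRR DN3 libraries and above 0 in at least 1 ETP library of each antibody group. Ctsg and Ms4a3 were at 0 in all MxCre DN3 libraries and above 0 in at least 1 MxCre ETP library. Others went the opposite way. S100a9, Ltf and Ngp were at 0 in all AntiNRR ETP libraries and above 0 in at least 1 AntiNRR DN3 library. Camp was at 0 in all IgG ETP libraries and above 0 in at least 1 IgG DN3 library. The markers summed to 26.9 to 30.8 CPM in DeltaMxCre DN3 against 19.6 to 33.7 in DeltaMxCre ETP, to 11.7 to 20.9 in MxCre DN3 against 13.7 to 17.2 in MxCre ETP, and to 24.6 to 36.6 in IgG DN3 against 15.5 to 27.1 in IgG ETP. They summed to 22.3 to 31.4 CPM in AntiNRR DN3 against 15.3 to 25.2 in AntiNRR ETP. In MxCre DN3 10 of the 11 were at 0, so 1 marker made up the whole sum, and the sums say little of the granule genes as a group.

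Spi1, whose product PU.1 is a master regulator of the myeloid programme, was low in DN3. Its level was 0.15, 0.0527 and 0.268 CPM in DeltaMxCre DN3, against 11.8, 6.94 and 8.25 CPM in DeltaMxCre ETP. It was 1.15, 0 and 0 CPM in MxCre DN3, against 17.4, 6.97 and 7.82 CPM in MxCre ETP. It was 0.259, 1.89 and 0 CPM in AntiNRR DN3, against 8.63, 37.5 and 15.2 CPM in AntiNRR ETP, and 1.25, 0.427 and 0.477 CPM in IgG DN3, against 10.7, 10.6 and 20.3 CPM in IgG ETP. The highest DN3 library lay below the lowest ETP library in every pair of groups. Spi1 fell 55.9-fold in DeltaMxCre DN3 (log2 fold change -5.80, SE 0.95, edgeR adjusted p = 0.00269) and 18.8-fold in IgG DN3 (-4.24, SE 0.608, adjusted p = 0.000218). It also fell in AntiNRR DN3 (-4.89, SE 1.17, edgeR adjusted p = 0.0299), a call that was lost without AntiNRR DN3 replicate 1 (adjusted p = 0.0995) or AntiNRR ETP replicate 3 (0.0753), and with genes of 1 count retained (0.0827). In MxCre DN3 the difference of -4.82 (SE 1.54) did not pass edgeR (adjusted p = 0.142). It passed without MxCre DN3 replicate 1, the library that held all 20 Spi1 counts of the group (adjusted p = 0.0279), and by DESeq2 (adjusted p = 0.00453).

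Spib, which encodes Spi-B, a close relative of PU.1 found in B cells and plasmacytoid dendritic cells, averaged more in DN3 than in ETP in all 4 pairs. Its level was 28.3, 24.1 and 38.7 CPM in DeltaMxCre DN3, against 11.7, 13.8 and 20.3 CPM in DeltaMxCre ETP. In MxCre it was 24.8, 25.5 and 7.35 CPM in DN3, against 14.9, 4.47 and 1.30 CPM in ETP, and these ranges overlapped. It was 72.1, 59.6 and 64.0 CPM in AntiNRR DN3, against 28.8, 16.5 and 12.4 CPM in AntiNRR ETP, and 48.2, 53.9 and 42.5 CPM in IgG DN3, against 17.9, 10.2 and 7.66 CPM in IgG ETP. Spib rose 4.04-fold in IgG DN3 (log2 fold change 2.01, SE 0.293, edgeR adjusted p = 0.000254) and 3.41-fold in AntiNRR DN3 (1.77, SE 0.297, adjusted p = 0.00146). The second call was lost when all groups of the table shared 1 estimate of spread (adjusted p = 0.0535). Differences of 0.96 (SE 0.314) for DeltaMxCre and 1.45 (SE 0.81) for MxCre did not pass edgeR (adjusted p = 0.0721 and 0.43). The plasmacytoid dendritic-cell markers summed to 227 to 244 CPM in IgG DN3 and 227 to 235 CPM in IgG ETP, with Cd300c at 0 in both.

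Irf8, a factor of dendritic cells and monocytes, had no common direction. It was 1.29, 2.30 and 5.73 CPM in AntiNRR DN3, against 9.56, 28.6 and 6.14 CPM in AntiNRR ETP, and it fell there (log2 fold change -2.26, SE 0.689, edgeR adjusted p = 0.0449). Leaving out AntiNRR ETP replicate 2, its highest library, gave -1.34 and an adjusted p of 0.373. The call was also lost without AntiNRR DN3 replicate 1 (adjusted p = 0.154), without AntiNRR DN3 replicate 2 (0.178) and without AntiNRR ETP replicate 1 (0.0509). In the other 3 stage comparisons the DN3 and ETP ranges overlapped, and the ETP libraries spread from 0.183 to 11.2 CPM.

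Csf1r encodes the receptor for macrophage colony-stimulating factor. It was 0.551, 0.915 and 1.67 CPM in IgG DN3, against 5.81, 5.35 and 17.1 CPM in IgG ETP, and fell (log2 fold change -3.17, SE 0.711, edgeR adjusted p = 0.00618). Without IgG ETP replicate 3 the difference was -2.41 and was no longer called (adjusted p = 0.0954). In the other pairs Csf1r was at 0 to 1.72 CPM in DN3 and at 0.304 to 8.76 CPM in ETP. Differences of -4.95 (SE 1.67) for AntiNRR and -2.57 (SE 1.10) for MxCre did not pass edgeR (adjusted p = 0.0634 and 0.272). For DeltaMxCre the difference was only -0.62 (SE 1.28), it did not pass edgeR, and its groups overlapped. Csf1r shares 873 exon bases with Hmgxb3 on the opposite strand, and the counting is not stated to use strand. The macrophage markers summed to 14.9 to 21.8 CPM in IgG DN3 and 20.7 to 28 CPM in IgG ETP, with C1qa, Vsig4 and Marco at 0 in all 6 libraries. C1qb, C1qc, Cd5l, Mertk and Timd4 were at 0 in all IgG DN3 libraries and above 0 in at least 1 IgG ETP library. The part of the macrophage markers in the Csf1r level was not tested.

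Of the integrin chains, Itgax (CD11c, the common dendritic-cell surface marker) fell in 3 of the 4 pairs. It was 0, 1.84 and 1.34 CPM in DeltaMxCre DN3, against 9.18, 11.0 and 14.1 CPM in DeltaMxCre ETP, and 0.344, 0 and 0.644 CPM in MxCre DN3, against 5.32, 8.63 and 1.26 CPM in MxCre ETP. It was 1.09, 0.164 and 0.294 CPM in AntiNRR DN3, against 6.56, 13.9 and 10.8 CPM in AntiNRR ETP, and 0.401, 0.427 and 1.13 CPM in IgG DN3, against 2.76, 5.97 and 9.44 CPM in IgG ETP. No pair overlapped. The log2 fold changes were -4.27 (SE 0.861, edgeR adjusted p = 0.0048) for AntiNRR, -3.43 (SE 0.984, adjusted p = 0.0436) for DeltaMxCre and -3.20 (SE 0.893, adjusted p = 0.0226) for IgG. The MxCre difference of -3.95 (SE 1.57) did not pass (adjusted p = 0.234). The IgG call was lost without IgG ETP replicate 3 (adjusted p = 0.13), IgG DN3 replicate 1 (0.075) or IgG DN3 replicate 2 (0.0853). The DeltaMxCre call was lost without either of DN3 replicates 2 and 3 or either of ETP replicates 1 and 3 (adjusted p from 0.0807 to 0.135). When all groups of the table shared 1 estimate of spread, the Itgax calls for DeltaMxCre (adjusted p = 0.0533) and IgG (0.0811), the Csf1r call for IgG (0.0969) and the Irf8 call for AntiNRR (0.114) were lost. The conventional dendritic-cell markers also differed, summing to 7.13 to 7.56 CPM in DeltaMxCre DN3 against 24.0 to 39.6 CPM in DeltaMxCre ETP, and to 6.96 to 11.4 CPM in IgG DN3 against 19.2 to 37.1 CPM in IgG ETP. Clec9a, which defines cross-presenting dendritic cells, was at 0 in IgG libraries of both stages, and the part of these markers in the Itgax level was not tested.

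Itgam (CD11b, the integrin chain of macrophages and granulocytes) averaged 1.08 to 1.58 CPM over the 4 DN3 groups and 4.43 to 10.1 CPM over the 4 ETP groups. Its log2 fold change was -2.05 (SE 1.17) for DeltaMxCre, -2.35 (SE 0.901) for MxCre, -2.70 (SE 0.965) for AntiNRR and -2.09 (SE 0.773) for IgG. None of the 4 passed edgeR (adjusted p from 0.0823 to 0.308). Gm49368, an annotated gene on the same strand, shares 3450 exon bases with Itgam, so reads could be split between them.

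**Figure D2:**
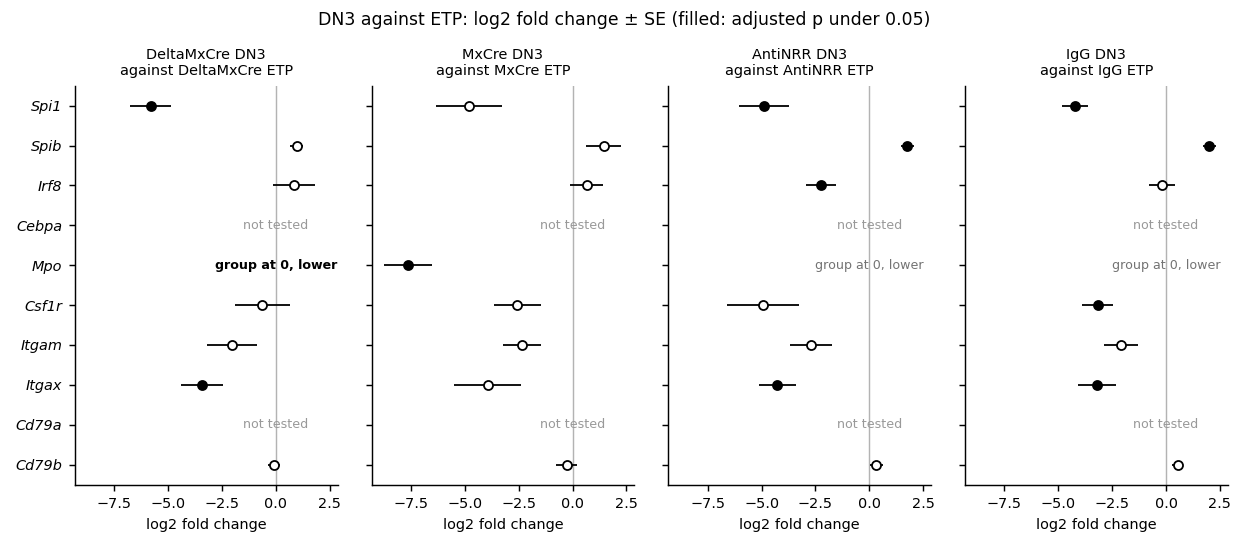
Log2 fold change of DN3 against ETP (points, bars are SE) for each member in the 4 treatments of the pI-pC and antibody table; filled points have an adjusted p under 0.05, and words replace the point where a member was not tested or a group was at 0. Spi1, Mpo, Csf1r, Itgam and Itgax lie left of 0 in every panel where a point is drawn, Spib lies right of 0, and Cd79b lies between -0.28 and 0.54.

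Cd79b, which encodes the signalling chain Ig-beta of the B-cell receptor, differed least between the stages among the tested members in 3 of the 4 comparisons. It averaged 23.3 ± 4.86 CPM in DeltaMxCre DN3, against 24.5 ± 3.08 in DeltaMxCre ETP, and 26.6 ± 5.52 in IgG DN3, against 18.3 ± 2.71 in IgG ETP (SD, n = 3 each). The largest of its 4 stage differences was 0.54 on the log2 scale (SE 0.271, edgeR adjusted p = 0.213), for IgG. In IgG and AntiNRR every DN3 library lay above every ETP library, and neither difference passed. Its partner Cd79a, which encodes Ig-alpha, was at 0 in 7 of 12 ETP libraries and 8 of 12 DN3 libraries of the table and nowhere above 3.51 CPM. Of 10 measured B-cell markers, Pax5, the factor that fixes B-cell identity, was at 0 in all 8 groups of this table.

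Cebpa, which encodes the factor C/EBP-alpha of granulocyte and macrophage development, was close to absent. It was at 0 in 7 of 12 ETP libraries and 7 of 12 DN3 libraries, and its highest level in the table was 3.78 CPM, in AntiNRR ETP replicate 1. A group at 0 allows up to 3 counts, which for MxCre ETP is 0.0559 CPM.

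Per length of exon, the order of the members also differed between the stages. In IgG ETP, Mpo led with 39.8 CPM per kilobase, followed by Cd79b at 12.8, Spi1 at 5.14 and Spib at 4.15. The lowest IgG ETP library for Mpo (11.8 CPM per kilobase) lay below the highest for Cd79b (14.0), and of the neighbours in the order only Cd79b and Spi1, and Irf8 and Cebpa, had ranges that did not overlap. In IgG DN3, Cd79b (18.6 CPM per kilobase) and Spib (16.8) led with overlapping ranges, and Irf8 came next at 0.722, its range clear of both Spib above and Spi1 below. MxCre ETP and AntiNRR ETP placed the same 4 genes first in the same order as IgG ETP. DeltaMxCre ETP placed Cd79b (17.1 CPM per kilobase) ahead of Mpo (7.83), and these ranges did not overlap.

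The genes whose centred log2 CPM followed a member most closely over the 24 libraries of this table, out of 9330 compared, are named with the root mean square difference. For Mpo they were Cd34 (0.772), a stem and progenitor surface protein, and Cd44 (1.39), where the member's own root mean square was 3.69. For Spi1 they were Ffar2 (0.692), a receptor for short-chain fatty acids, and Pygl (0.741), liver glycogen phosphorylase, against 2.05 for Spi1 itself. For Spib they were Ppm1h (0.635) and Armc7 (0.638), against 1.25 for Spib itself. Irf8 was nearest to Adck3 (0.819) and Cenpk (0.831), against 1.15 for Irf8 itself, and Cd79b to Snx30 (0.26) and Smurf1 (0.273), against 0.398 for Cd79b itself.

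Progenitor factors that accompany PU.1 form a list of 13 genes that includes the ETP markers Kit, Cd34, Flt3 and Lyl1. Among them 6 of 9 tested fell in DeltaMxCre DN3, 9 of 12 in MxCre DN3, 5 of 10 in AntiNRR DN3 and 9 of 12 in IgG DN3, and none rose. The shares of all genes called lower were 6.21%, 2.1%, 5.87% and 7.6% in that order. In AntiNRR DN3 6 of the 13 were at 0, and genes that passed the filter on low counts through ETP alone had to differ, so these counts are a description. Hhex, a homeobox factor of progenitors, fell in DeltaMxCre, MxCre and AntiNRR DN3 with log2 fold changes of -4.10, -4.48 and -4.28 (SE 0.399, 0.412 and 0.749; edgeR adjusted p = 0.000102, 0.000793 and 0.00945). At most 2 called genes per direction were named from each list in a comparison, so a gene may also be called where it is not named.

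Other myeloid genes numbered 30, and the same limits and shares of all genes hold for this list and those that follow. Among those tested, 3 of 19 fell in DeltaMxCre DN3, 4 of 16 in MxCre DN3, 3 of 18 in AntiNRR DN3 and 5 of 18 in IgG DN3, and none rose. Ncf1, a subunit of the phagocyte oxidase, fell in DeltaMxCre, MxCre and AntiNRR with log2 fold changes of -1.47, -2.08 and -1.59 (SE 0.344, 0.314 and 0.362; edgeR adjusted p = 0.0177, 0.00734 and 0.0105). Of the other B-lineage genes, 1 of 10 tested fell in DeltaMxCre DN3, 1 of 9 in MxCre DN3, 2 of 7 in AntiNRR DN3 and 4 of 8 in IgG DN3. Btk, a kinase that acts below the B-cell receptor and also in myeloid cells, fell in all 4, with log2 fold changes of -3.68, -3.78, -4.77 and -3.47 in that order (SE 0.763, 0.327, 0.996 and 0.465; edgeR adjusted p = 0.0101, 0.000638, 0.0207 and 0.000139).

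Of the other dendritic-cell genes, 5 of 20 tested fell in DeltaMxCre DN3, 5 of 22 in MxCre DN3, 4 of 19 in AntiNRR DN3 and 4 of 22 in IgG DN3. Tcf4, a factor of plasmacytoid dendritic cells, rose in DeltaMxCre DN3 (log2 fold change 0.53, SE 0.146, edgeR adjusted p = 0.0387) and in AntiNRR DN3 (0.55, SE 0.163, adjusted p = 0.0382). It was the only gene of that list to rise in a stage comparison. Runx2, another of the plasmacytoid dendritic-cell markers, was called lower in DN3 for DeltaMxCre, MxCre, AntiNRR and IgG. Its log2 fold changes were -0.79, -1.17, -1.02 and -0.85 in that order (SE 0.227, 0.25, 0.229 and 0.205, edgeR adjusted p = 0.045, 0.0377, 0.00954 and 0.01). Of 10 T-lineage factors that oppose other fates, 4 were called higher and 1 lower in DeltaMxCre, 2 and 1 in MxCre, 5 and 1 in AntiNRR, and 4 and 2 in IgG. In that order, 5.14%, 0.895%, 5.75% and 7.12% of all genes were called higher, and 6.21%, 2.1%, 5.87% and 7.6% lower.

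The ETP libraries differed widely among themselves, in the myeloid members and in the stage markers. AntiNRR ETP replicate 2 held the highest Mpo, Spi1, Irf8 and Itgam of the 12 ETP libraries, at 440, 37.5, 28.6 and 20.7 CPM. It also held the highest summed level of the 5 ETP markers Kit, Cd44, Cd34, Flt3 and Lyl1 (1130 CPM) and the lowest of the 6 DN3 markers (613 CPM). IgG ETP replicate 3 stood second in Mpo and Spi1 (275 and 20.3 CPM) and highest in Csf1r (17.1 CPM). Its ETP marker sum of 826 CPM was the highest of the IgG ETP libraries, and its DN3 marker sum of 2794 CPM the lowest of them. The DeltaMxCre ETP libraries held ETP marker sums of 312 to 426 CPM and the 3 highest DN3 marker sums, 5952 to 6726 CPM, with Mpo at 14.6 to 48.0 CPM. The lowest ETP marker sum was that of IgG ETP replicate 1, at 283 CPM. Members did not always follow these sums. MxCre ETP replicate 2 had the second-highest ETP marker sum (872 CPM) with Spi1 at only 6.97 CPM, and DeltaMxCre ETP replicate 3, with a sum of 312 CPM, had the highest Itgax (14.1 CPM). The part of these marker sums in the members' levels was not tested.

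**Figure D3:**
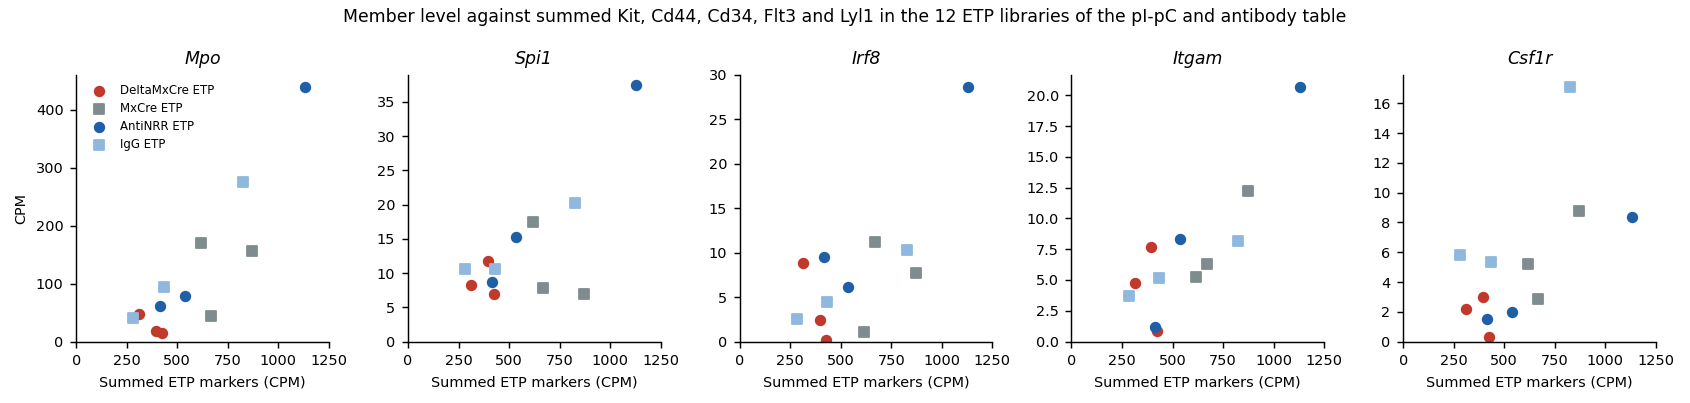
Level in CPM of 5 members against the summed CPM of the ETP markers Kit, Cd44, Cd34, Flt3 and Lyl1 in the 12 ETP libraries of the pI-pC and antibody table, coloured by group. AntiNRR ETP replicate 2, with a marker sum of 1130 CPM, is at the top for Mpo, Spi1, Irf8 and Itgam.

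Treatments changed no member past the threshold. By edgeR's quasi-likelihood test, 0 members were called in any of the 6 comparisons of deleted or blocked with control cells. The share of all genes called was 0.0416% in DeltaMxCre ETP against MxCre ETP, 1.44% in DeltaMxCre DN3 against MxCre DN3, 0% in DeltaTamCre ETP against TamCre ETP, 0.0827% in DeltaTamCre DN3 against TamCre DN3, 0% in AntiNRR ETP against IgG ETP and 5.61% in AntiNRR DN3 against IgG DN3. In that order, 8, 6, 10, 8, 8 and 4 members were tested, and 1, 0, 3, 3, 0 and 1 had an unadjusted p under 0.05, as did 5.56%, 16.1%, 4.95%, 15.6%, 5.47% and 16.9% of all genes. DESeq2 called 1 member in DeltaMxCre ETP, 2 in DeltaTamCre DN3 and 0 in the other 4 comparisons.

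In DeltaMxCre ETP, Mpo was at 17.9, 14.6 and 48.0 CPM, against 170, 157 and 43.4 CPM in MxCre ETP. Its log2 fold change of -2.21 (SE 0.569) did not pass edgeR (adjusted p = 0.421) and passed DESeq2 (adjusted p = 0.00308). The groups overlapped through 1 library each. Stage markers and markers of other cells differed between the same libraries without overlap. The DN3 markers summed to 5952 to 6726 CPM in DeltaMxCre ETP against 2301 to 3234 in MxCre ETP, and the ETP markers to 312 to 426 against 617 to 872. Mast and basophil markers summed to 134 to 273 CPM in DeltaMxCre ETP against 383 to 555 in MxCre ETP, and natural killer and innate lymphoid markers to 78.9 to 138 against 198.5 to 418. Dtx1 (log2 fold change 3.18, SE 0.392, edgeR adjusted p = 0.0185), Ptcra (3.56, SE 0.561, adjusted p = 0.0493) and Il2ra (1.27, SE 0.19, adjusted p = 0.0362) rose there, and their part in the Mpo level was not tested. Over the 13 alternatives the adjusted p ran from 0.00308 to 1. Itgax was at 9.18, 11.0 and 14.1 CPM in DeltaMxCre ETP, against 5.32, 8.63 and 1.26 CPM in MxCre ETP. It was the only tested member whose groups did not overlap, in a comparison where 12.6% of all genes did not, and its log2 fold change of 1.17 (SE 0.815) did not pass (edgeR adjusted p = 0.996). All 12 tested progenitor factors lay below 0 there, with a median log2 fold change of -1.76 against -0.03 over all genes, and 0 of them passed the test.

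In DeltaMxCre DN3, Spib was at 28.3, 24.1 and 38.7 CPM, against 24.8, 25.5 and 7.35 CPM in MxCre DN3 (log2 fold change 0.66, SE 0.408, edgeR adjusted p = 0.487). Irf8 was at 6.59, 6.01 and 8.52 CPM, against 13.8, 11.3 and 6.92 CPM (-0.60, SE 0.354, adjusted p = 0.441). No tested member was free of overlap between the groups, where 21.6% of all genes were. Spi1 and Mpo were too low to test in either DN3 group, with 8 and 0 counts in all in DeltaMxCre DN3 and 20 and 33 in MxCre DN3. Around the members, Itgb2, the beta chain that pairs with both integrin members, rose (1.13, SE 0.212, edgeR adjusted p = 0.0171). Clec12a, an inhibitory lectin of myeloid cells, rose too (1.09, SE 0.193, adjusted p = 0.013), and Bcl11a, a progenitor and B-cell factor, fell (-2.01, SE 0.324, adjusted p = 0.00752).

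Blocking Notch1 gave no called member at either stage. In AntiNRR ETP, Irf8 was at 9.56, 28.6 and 6.14 CPM, against 2.53, 4.43 and 10.3 CPM in IgG ETP (log2 fold change 1.35, SE 0.641, edgeR adjusted p = 0.907). Without AntiNRR ETP replicate 2 the difference was 0.44, and without IgG ETP replicate 3 it was 2.09. Csf1r was at 1.5, 8.35 and 1.99 CPM, against 5.81, 5.35 and 17.1 CPM (-1.25, SE 0.761, adjusted p = 0.968), and the same omissions gave -2.43 and -0.50. Spib was at 28.8, 16.5 and 12.4 CPM, against 17.9, 10.2 and 7.66 CPM (0.69, SE 0.442, adjusted p = 0.968). All 8 tested members had overlapping groups, where 11.8% of all genes did not overlap. Without overlap, mast and basophil markers summed to 603 to 802 CPM in AntiNRR ETP against 276 to 371 in IgG ETP. The DN3 markers summed to 613 to 1860 CPM against 2794 to 4157, also without overlap. The part of these sums in the members' levels was not tested.

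In AntiNRR DN3, Spib was at 72.1, 59.6 and 64.0 CPM, against 48.2, 53.9 and 42.5 CPM in IgG DN3. The groups did not overlap, and the log2 fold change of 0.42 (SE 0.168) did not pass edgeR (adjusted p = 0.173). Cd79b was at 22.2, 20.6 and 21.0 CPM, against 32.8, 24.6 and 22.3 CPM, again with no overlap (-0.33, SE 0.244, adjusted p = 0.559). These were 2 of the 4 tested members, in a comparison where 22.4% of all genes had no overlap. Several marker sums had none either. The DN3 markers summed to 5027 to 5833 CPM in AntiNRR DN3 against 9584 to 9829 in IgG DN3, and the ETP markers to 155 to 214 against 93.6 to 112. Mast and basophil markers summed to 105 to 155 CPM against 17.1 to 32.4, and natural killer and innate lymphoid markers to 222 to 249 against 116 to 144. The part of these sums in the members' levels was not tested. The list genes that did change there included Itgb2 (1.01, SE 0.225, edgeR adjusted p = 0.00733) and Clec12a (1.10, SE 0.161, adjusted p = 0.000107), both higher, and Cpa3, a mast-cell protease also found in early progenitors, higher by 2.54 (SE 0.22, adjusted p = 1.22e-06). Of the dendritic-cell genes, Ly6d was lower (-0.57, SE 0.152, adjusted p = 0.0262) and Plac8 higher (0.63, SE 0.137, adjusted p = 0.00624). Of the progenitor factors, Erg was lower (-1.09, SE 0.241, adjusted p = 0.00688) and Kit higher (0.84, SE 0.127, adjusted p = 0.000153). Dtx1, a Notch target read as a check of the block, fell by 3.94 on the log2 scale (SE 0.428, edgeR adjusted p = 0.00576). In AntiNRR ETP against IgG ETP the Dtx1 difference of -3.01 (SE 1.3) did not pass edgeR (adjusted p = 0.919).

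**Figure D4:**
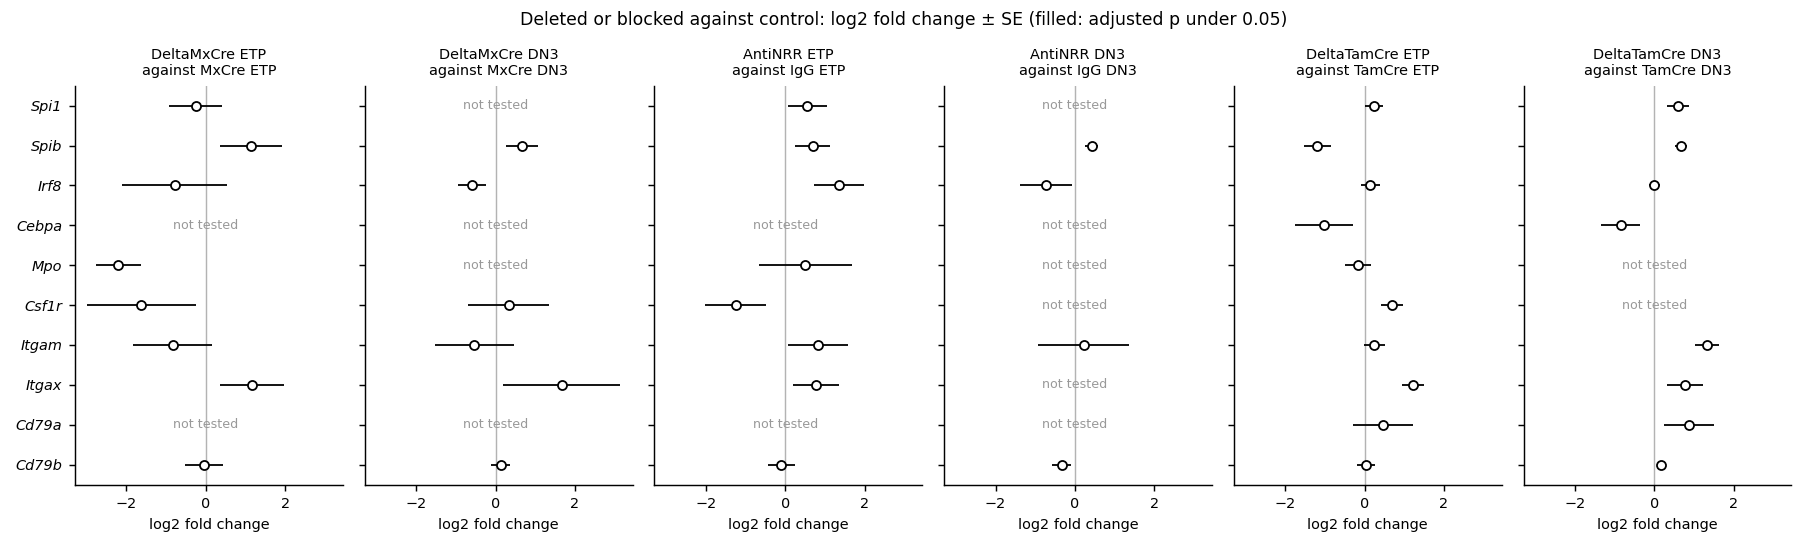
Log2 fold change of deleted or blocked against control cells (points, bars are SE) for each member in the 6 comparisons; no point is filled, since no adjusted p was under 0.05. Spib lies right of 0 in 5 panels and left of 0 in DeltaTamCre ETP, at -1.20.

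The tamoxifen DN3 libraries, the deepest of the study, held 3 members higher in every deleted library, none of which passed edgeR. In DeltaTamCre DN3, Spib was at 102, 98.7, 100.0 and 88.7 CPM, against 41.7, 72.0, 59.1 and 70.5 CPM in TamCre DN3. Every deleted library lay above every control library, and the log2 fold change of 0.68 (SE 0.149) did not pass edgeR (adjusted p = 0.121) but passed DESeq2 (adjusted p = 0.00176). Itgam was at 2.00, 1.97, 1.90 and 1.78 CPM, against 0.474, 1.06, 0.606 and 0.901 CPM, from 100 to 129 counts per library against 40 to 99. It too was free of overlap, at 1.33 (SE 0.299, edgeR adjusted p = 0.121, DESeq2 adjusted p = 0.00213). Spi1 was at 2.72, 2.18, 2.77 and 2.35 CPM, against 1.58, 0.931, 2.06 and 2.08 CPM, the third member without overlap (0.59, SE 0.269, edgeR adjusted p = 0.317). In all, 3 of 8 tested members were higher in every DeltaTamCre DN3 library, where 4.38% of all genes were, and 10.2% of all genes had no overlap in either direction. The members were chosen with earlier results of these data known, so this count is a description and no independent evidence.

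No other myeloid, B-lineage, dendritic or progenitor gene of the lists passed the test in DeltaTamCre DN3. All 13 tested genes of the other B-lineage list lay above 0, with a median log2 fold change of 0.35, and 14 of 18 other myeloid genes did, with a median of 0.25, against 0.01 over all genes. The median over the 8 tested members was 0.64. Sums of the natural killer and innate lymphoid markers and of the B-cell markers did not overlap between the groups. Those of the other cell-marker and stage lists did, among them the plasmacytoid dendritic-cell markers (516 to 1018 CPM in DeltaTamCre DN3 against 748 to 989 in TamCre DN3). The double-positive thymocyte markers summed to 883 to 979 CPM in DeltaTamCre DN3 against 784 to 897 in TamCre DN3. The natural killer and innate lymphoid markers summed to 229 to 254 CPM against 296 to 315, with Gzma among them lower (log2 fold change -0.70, SE 0.104, edgeR adjusted p = 0.0368). The ETP markers summed to 63.1 to 85.9 CPM against 54.7 to 63.3, and the B-cell markers to 4.32 to 6.10 CPM against 2.75 to 4.23, with Pax5 at 0 in all TamCre DN3 libraries. Their part in the members' levels was not tested.

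**Figure D5:**
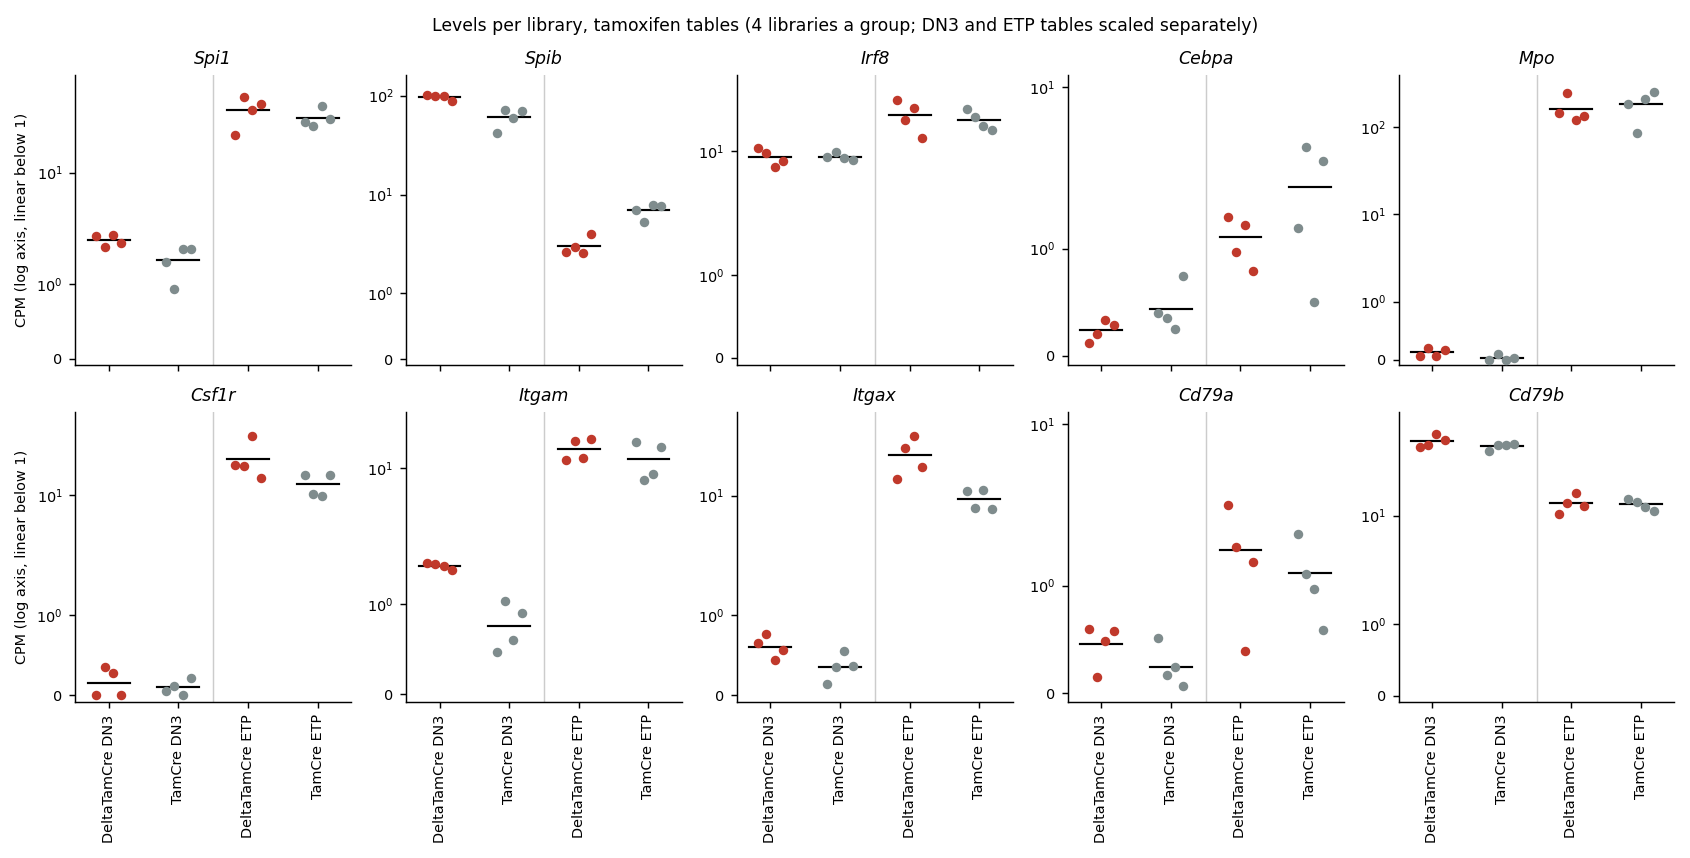
Levels of the 10 members in CPM (log axis, linear below 1) in every tamoxifen library; points are libraries and bars are means of 4, and the DN3 and ETP tables were scaled separately. Spib in DeltaTamCre DN3 (88.7 to 102 CPM) lies above TamCre DN3 (41.7 to 72.0), and in DeltaTamCre ETP (2.58 to 3.95) it lies below TamCre ETP (5.33 to 7.92).

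In DeltaTamCre ETP the pattern of Spib was the opposite. It was at 2.63, 2.96, 2.58 and 3.95 CPM, against 7.03, 5.33, 7.92 and 7.61 CPM in TamCre ETP, with every deleted library below every control library. Its log2 fold change of -1.20 (SE 0.335) did not pass edgeR (adjusted p = 0.907, unadjusted p = 0.00349). Itgax was at 13.8, 24.8, 31.3 and 17.4 CPM, against 10.9, 7.81, 11.1 and 7.73 CPM, all higher (1.22, SE 0.279, edgeR adjusted p = 0.907, unadjusted p = 0.000777). Csf1r was at 17.7, 17.3, 30.9 and 13.8 CPM, against 14.8, 10.2, 9.76 and 14.8 CPM (0.68, SE 0.277, adjusted p = 0.907). The conventional dendritic-cell markers summed to 78.7 to 197 CPM in DeltaTamCre ETP against 59.7 to 126 CPM in TamCre ETP, and their part was not tested. The 2 members without overlap stood among 3.98% of all genes, and no gene at all was called by edgeR in this comparison.

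Levels of the remaining members in the tamoxifen tables overlapped between deleted and control cells. Mpo was at 121 to 244 CPM in DeltaTamCre ETP against 85.8 to 248 in TamCre ETP, from 2158 to 4773 counts against 2559 to 5857. Spi1 was at 21.8 to 47.4 CPM against 26.3 to 39.7, Irf8 at 12.7 to 25.8 against 14.8 to 21.8, Itgam at 11.5 to 16.4 against 8.14 to 15.5, and Cd79b at 10.3 to 16.3 against 11.0 to 14.3. DeltaTamCre ETP libraries varied among themselves, with DN3 marker sums of 1589 to 5017 CPM against 2479 to 3792 in TamCre ETP, and natural killer and innate lymphoid sums of 59.5 to 909 CPM against 104 to 430. Double-positive thymocyte markers summed to 417 to 2386 CPM against 460 to 1226. Without overlap, mast and basophil markers summed to 88.6 to 159 CPM against 167 to 196, and erythroid markers to 6.67 to 8.17 against 8.76 to 15.3. The part of these sums in the members' levels was not tested. In DN3 cells Irf8 was at 7.39 to 10.5 CPM in DeltaTamCre and 8.51 to 9.90 in TamCre, and Cd79b at 43.5 to 57.1 in DeltaTamCre and 39.2 to 46.1 in TamCre. Mpo stood at 0.06 to 0.204 CPM in DeltaTamCre DN3 (3 to 12 counts) and at 0 to 0.0963 in TamCre DN3 (0 to 9 counts), too low to test.

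Whether the treatments acted differently on the members at the 2 stages, or whether deletion acted differently from the Notch1 block, was tested as an interaction within the pI-pC and antibody table. No member passed edgeR in any of the 4 interactions, with 9 tested for the deletion effect in DN3 minus that in ETP, 9 for the Notch1 block, 10 for deletion minus block in ETP and 7 for deletion minus block in DN3. The shares of all genes called were 0.00746%, 0%, 0.082% and 1.23%, and 0, 2, 1 and 0 members had an unadjusted p under 0.05, as did 5.52%, 5.46%, 6.4% and 12.5% of all genes. For Irf8 the block effect in DN3 minus that in ETP was -2.08 on the log2 scale (SE 0.942, edgeR adjusted p = 0.901). The other 2 were Cd79a values (unadjusted p = 0.00834 and 0.0104, adjusted p = 0.901 and 0.6), from fits in which AntiNRR DN3 or IgG ETP stood at 0, so no fold is given.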

How the data were processed

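RNA-seq of sorted mouse ETP and DN3 thymocytes was deposited as 3 tables of estimated counts per gene symbol, and the authors had not scaled them between libraries. The submitters' processing notes name the build mm10 and, with no roles, Cuffdiff 2.1.1, TopHat2 2.0.9, Cufflinks, Bowtie2 2.1.0.0 and FastQC 0.10.0. The annotation, strand setting and treatment of reads that match several genes are not given in the sources used here. Estimated counts were rounded, and 0.712% to 1.19% of the values lay further than 0.01 from a whole number. Per the labels, the kits took 10 ng RNA and 16 PCR cycles (pI-pC and antibody), 100 ng and 12 cycles (tamoxifen DN3), or 1 ng and 15 cycles (tamoxifen ETP), from 100K to 400K DN3 or 5K to 20K ETP cells.

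For each comparison, its groups alone were fitted (R 4.3.3). After filterByExpr (minimum count 10, total 15) and TMM scaling, genes were tested by the robust quasi-likelihood F test of edgeR 4.0.16, with Benjamini-Hochberg adjustment over all genes and a threshold of 0.05. Log2 fold changes are deleted or blocked minus control, or DN3 minus ETP, with a prior count of 0.125. The fit was tested on simulated data. The 10 members and the gene lists were chosen with earlier results of these data known, so no count of them is independent evidence. All members were named in every comparison, with at most 2 called genes per direction from each list, the 2 nearest genes of each member averaging 5 CPM or more, and Zmiz1, Dtx1 and the stage markers as checks. Genes were placed by GENCODE M21 on GRCm38. Alternatives were DESeq2 1.42.0, DESeq2 size factors, 2 other count filters, unrounded counts, a spread shared by all groups, a replicate block, and each library left out. Replicate numbers were not used to pair the samples in the main fit, since nothing says whether the same number marks 1 mouse. For the antibody groups the labels do not say whether libraries came from separate mice, so p-values measure the spread between these libraries.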

Additional observations from a re-analysis of the deposited data

Results flagged for a closer look

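Spib lay on opposite sides of its controls in the 2 tamoxifen tables, and neither difference passed edgeR (adjusted p = 0.121 and 0.907). Its log2 fold change was 0.68 in DeltaTamCre DN3 against TamCre DN3, with every deleted library above every control library, and -1.20 in DeltaTamCre ETP against TamCre ETP, with every deleted library below every control library. The difference between these effects was not tested, because the DN3 and ETP libraries were made with different kits. The pI-pC deletion, tested within 1 kit, gave 0.66 in DN3 and 1.14 in ETP (edgeR adjusted p = 0.487 and 0.991). Among 40 sets of 4 libraries, 1 set per member and tamoxifen group, Dixon's test at 95% found 0 libraries standing apart.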

How the results depend on the processing

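The number of members called moved with the tool, the filter and single libraries. DESeq2 called 1 member in DeltaMxCre ETP against MxCre ETP, 2 in DeltaTamCre DN3 against TamCre DN3, 7 in AntiNRR DN3 against AntiNRR ETP and 3 in MxCre DN3 against MxCre ETP, where edgeR called 0, 0, 4 and 1. It also called 6 in IgG DN3 against IgG ETP (Mpo and Itgam in addition to edgeR's 4) and 4 in DeltaMxCre DN3 against DeltaMxCre ETP (Spib in addition to edgeR's 3). In MxCre DN3 against MxCre ETP, retaining genes with 1 count gave 0 calls, a spread shared by all groups gave 3, and the replicate block gave 2. Leaving out 1 library at a time gave 2 to 4 calls in AntiNRR DN3 against AntiNRR ETP (2 without AntiNRR DN3 replicate 1) and 1 to 2 in MxCre DN3 against MxCre ETP (2 without MxCre DN3 replicate 1). The range was 3 to 5 in IgG DN3 against IgG ETP and 2 to 3 in DeltaMxCre DN3 against DeltaMxCre ETP. Leaving out 1 library gave 0 calls throughout in the 6 treatment comparisons and the 4 interactions. The cause of these differences was not tested. The reported log2 fold changes kept their sign in all 570 repeats, of which 22 lost a call and 25 gained one. Same-numbered libraries correlated between -0.355 and 0.184, in no comparison did every pair exceed 0.1, and in none did every library correlate best with its own number, so the replicate block is given as an alternative only. With the block, Irf8 was not called in AntiNRR DN3 against AntiNRR ETP (-2.25, adjusted p = 0.0743), while Mpo was called in AntiNRR and IgG and Spi1 in MxCre (adjusted p = 2.58e-09, 1.85e-11 and 0.0345). Low counts kept Cebpa and Cd79a out of every stage and treatment test of the pI-pC and antibody table. Of the 3 treatment tests in DN3, they kept out Mpo in 3, Spi1 and Csf1r in 2 each and Itgax in 1.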
